A study of Rattus norvegicus with 36 samples.

Results

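The pro-survival BCL2 and inhibitor of apoptosis (IAP) genes were examined in H9C2 cells, a rat cardiac myoblast line, that had been given a miR-125b mimic or 1 of 4 miR-125b isomiRs. The genes were chosen by symbol, and an exact match of gene name found 7 of the 8 symbols looked for among the 24275 genes of the joined count tables. These were Bcl2 (ENSRNOG00000002791, chromosome 13), Bcl2l1 (ENSRNOG00000007946, chromosome 3), Bcl2l2 (ENSRNOG00000015732, chromosome 15), Xiap (ENSRNOG00000006967, chromosome X), Birc2 (ENSRNOG00000010602, chromosome 8), Birc3 (ENSRNOG00000005731, chromosome 8) and Cflar (ENSRNOG00000012473, chromosome 9). Mcl1 was not analysed here.

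Cells were transfected with 25 nmol/L of a mimic control (MC), the miR-125b mimic, or an isomiR mimic with an added A (Plus A), a deleted A (Trim A), AG deleted (Trim AG) or AGU deleted (Trim AGU). After 24 h of transfection they were kept for a further 24 h in normoxia with fresh medium or in hypoxia with serum-free, low-glucose medium, so oxygen and medium changed together and cannot be told apart. Poly-A RNA was then sequenced without strand information. Counts of single libraries were used for 11 of the 12 groups of mimic and oxygen, with 3 libraries per group and 33 libraries in all. The Normoxia MC group entered only as a mean in the deposited tables. The labels name Trim 1, Trim 2 and Trim 3, which were read here as Trim A, Trim AG and Trim AGU, and miR-125b A, which was read as Plus A. No label states that the 3 libraries of a group came from separate cultures, and p-values then measure only the spread between these samples, which may be technical.

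BCL2, BCL-XL (the product of Bcl2l1) and BCL-W (Bcl2l2) hold the pore-forming proteins BAX and BAK in check at the mitochondrial membrane and so keep cytochrome c from leaving. IAP proteins act further down: XIAP binds caspases and blocks their activity, while cIAP1 (Birc2) and cIAP2 (Birc3) are ubiquitin ligases that bind TRAF2 at the TNF receptor, favour survival signalling through NF-kB and limit its non-canonical arm. Cflar encodes cFLIP, a caspase-8 relative without protease activity that competes for FADD at death receptors. In heart muscle cells deprived of oxygen these proteins set how readily a cell enters apoptosis.

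The 5 mimics are shown because every comparison turns on their 3' ends. The mature rat miR-125b-5p sequence is that of RefSeq (build GRCr8, chr11:29732588-29732609, plus strand), and the isomiRs were written from it by the bases that their names add or remove, so they are not the manufacturer's strings. Capitals mark the seed, bases 2 to 8, which is the same in all 5.
miR-125b: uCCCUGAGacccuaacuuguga
Plus A: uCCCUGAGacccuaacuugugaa
Trim A: uCCCUGAGacccuaacuugug
Trim AG: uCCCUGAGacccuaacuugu
Trim AGU: uCCCUGAGacccuaacuug
The lengths are 22, 23, 21, 20 and 19 bases in this order.

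The libraries held 28361216 to 42672584 counts. Of the 10 striated myoblast markers looked for, all 10 were found, and their summed level was 1602 to 1629 CPM (counts scaled to the library total) in Hypoxia MC against 355.6 to 896.2 CPM in the other groups, while Myf5, a marker of early myoblasts, was at 0 to 0.0703 CPM. Not every marker was higher there. Myog, Tnnt2, Myh3 and Acta1 averaged 352, 307, 249 and 166 CPM in Hypoxia MC, against 33-library medians of 45.0, 29.8, 13.1 and 36.6 CPM. Actc1 and Chrna1 were higher too. Cdh15, Myod1 and Des averaged 413, 63.3 and 1.79 CPM, against medians of 420, 61.9 and 1.82 CPM. Endothelial and leukocyte markers were low, at a summed 0.69 to 4.60 and 1.65 to 3.67 CPM, with Hypoxia MC at the top of the endothelial range through Tek. Hypoxia Trim AGU replicate 2 stood apart, with the fewest genes detected (16981) and the highest mitochondrial share of counts (5.70%). In normoxia, Cav1 was at 102.3 CPM in miR-125b replicate 1 against 262.9 and 282 CPM in the other 2 libraries, and at 268.9 CPM in Plus A replicate 1 against 98.0 and 98.3 CPM, so the libraries labelled Normoxia miR-125b 1 and Normoxia Plus A 1 each resembled the other group in this gene. Every comparison that holds any of these 3 libraries was also fitted without the normoxia libraries whose labels are in doubt or without Hypoxia Trim AGU replicate 2. The counts of genes called are given with each comparison.

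Per length, the BCL-XL gene was the highest of the 7. Median FPKM (fragments scaled to gene length and library depth, as deposited) over the 33 libraries was 21 for Bcl2l1 and 15.4 for Birc2, followed by 8.4 for Cflar, 7.65 for Bcl2l2 and 4.97 for Xiap. Bcl2 and Birc3 were the lowest, at 2.02 and 1.02 FPKM. Bcl2l1 and Birc2 together made up a median 61.7% of the summed FPKM of the 7 genes (range 43.5% to 80.0%). Cflar and Bcl2l2 changed places between libraries, and each held its usual place in 17 and 18 of the 33 libraries. Counts ran from 33 to 163 for Bcl2 and from 35 to 130 for Birc3 per library, against 1498 to 3708 for Bcl2l1. Birc2 and Birc3 are paralogs that lie side by side on chromosome 8, on the same strand and 14826 bases apart with 0 listed genes between them, and how the authors counted reads shared by related sequences is not given in the sources used here.

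Across the 11 groups the order of the levels differed from gene to gene, as the plot of CPM in every library shows. Bcl2l2 was highest in Hypoxia MC, at 51.9 ± 2.76 CPM (SD, n = 3 libraries), and its libraries did not overlap with those of the next group, Normoxia Trim AGU. Bcl2l1 was highest in Hypoxia Trim AGU, at 107 ± 7.97 CPM (SD, n = 3), and lowest in Normoxia Trim AG, at 53.3 ± 1.31 CPM (SD, n = 3). For Bcl2 and Xiap, all 10 pairs of neighbours in the order of group means overlapped. For Bcl2l1 and Birc2 7 of 10 did, for Bcl2l2 and Birc3 8, and for Cflar 9. The ratio of the highest to the lowest group mean was 1.85 for Birc2 and 2.01 for Bcl2l1, and it reached 2.71 for Bcl2.

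**Figure D1:**
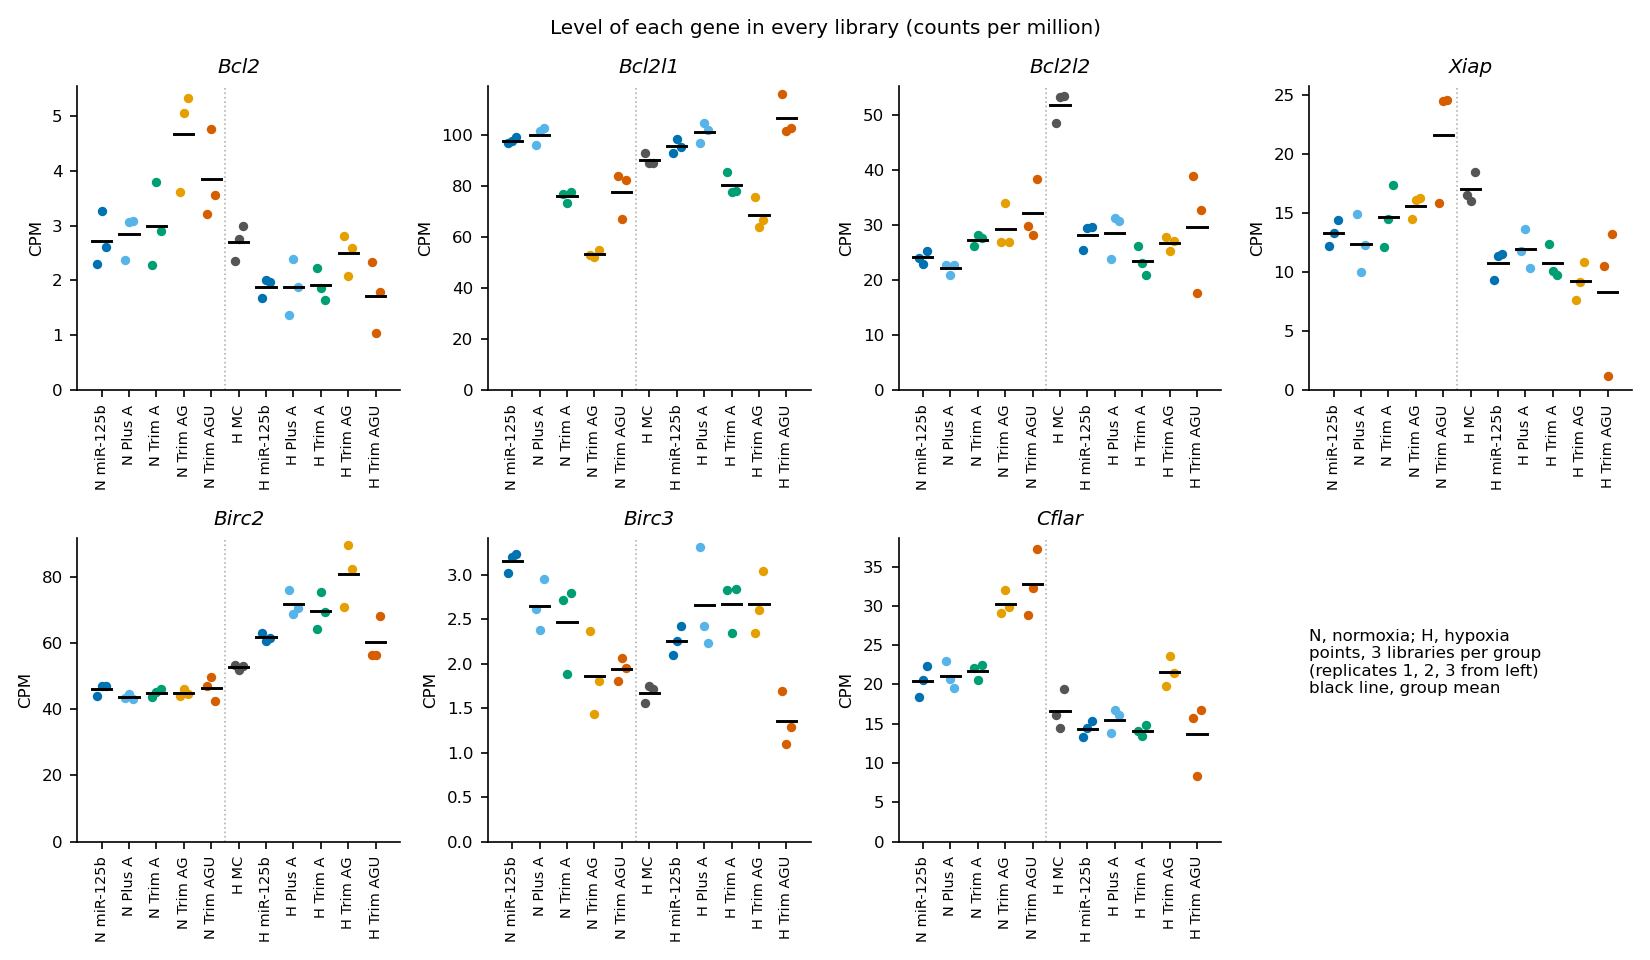
CPM (vertical axes, from 0) of each gene in the 33 libraries by group (horizontal axes), with the normoxia groups left and the hypoxia groups right of the dotted line; points are the 3 libraries of a group and black lines the group means. The 3 Hypoxia MC libraries of Bcl2l2, at 48.7 to 53.5 CPM, lie above all others, and Hypoxia Trim AGU replicate 2 has the lowest Xiap, at 1.16 CPM.

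The first comparison asked how each mimic changed these genes against MC in hypoxia. Bcl2l2 and Xiap were lower and Birc2 and Birc3 higher in most mimics, and Bcl2l1 was higher under some and lower under others. A gene was called where edgeR's quasi-likelihood test gave an adjusted p under 0.05 over all genes tested and the change was at least 1.5-fold. By this rule 2 of 7 genes were called under miR-125b, where 21.9% of all tested genes were, and 2 under Plus A (24.8% of all). There were 3 under Trim A (28.1%), 4 under Trim AG (37.2%) and 0 under Trim AGU (23.8%). For the 0 under Trim AGU, 3 of the 7 had an unadjusted p under 0.05, as had 6575 of all 15026 tested genes. DESeq2 called 1 of the 7, Bcl2l2, and 4278 of 17371 genes. The median log2 fold change of the 7 was -0.18, -0.081, -0.20, -0.048 and -0.17 in this order of mimics, against -0.016 to 0.0033 for all genes. Scaling by total counts in place of TMM (edgeR's trimmed mean scaling) shifted the median of all genes by -0.14 under Trim AGU and by less under the others. The 5 comparisons share the 3 MC libraries.

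Bcl2l2, the gene of BCL-W, was at 48.7, 53.4 and 53.5 CPM in the 3 MC libraries. It was at 25.4, 29.6 and 29.7 CPM with miR-125b and at 23.8, 31.4 and 30.7 CPM with Plus A. All 6 mimic libraries were below all MC libraries. The log2 fold change was -0.84 ± 0.067 (SE), adjusted p = 1.17e-06, for miR-125b and -0.84 ± 0.094 (SE), adjusted p = 3.85e-05, for Plus A. Trim A gave the lowest mean, with 26.2, 23.2 and 21 CPM and a log2 fold change of -1.10 ± 0.091 (SE), adjusted p = 4.61e-05. Trim AG gave 27.9, 25.3 and 27 CPM and -0.89 ± 0.074 (SE), adjusted p = 1.74e-05. These 4 calls held without each library in turn and in the other settings run at the same fold threshold, 11 of 11 in all. Trim AGU gave 38.9, 17.6 and 32.7 CPM, also below MC in all 3 libraries but with a spread that left the value uncalled, at -0.68 (95% interval -1.24 to -0.13, adjusted p = 0.0652). Without its replicate 2, the library that stood apart, the value was smaller and passed the test below 1.5-fold, at -0.455 (adjusted p = 0.00398). It was called without Hypoxia Trim AGU replicate 1 (-0.89, adjusted p = 0.0311), under DESeq2 (-0.68, adjusted p = 0.0288) and in 1 fit over all libraries (-0.69, adjusted p = 0.000484). The summed striated myoblast markers moved with Bcl2l2, at 1602 to 1629 CPM in Hypoxia MC against 355.6 to 640.1 CPM in the 5 mimic groups in hypoxia, and their part in the result was not tested. The higher sum came from Myog, Tnnt2, Myh3, Acta1, Actc1 and Chrna1, while Cdh15, Myod1 and Des in Hypoxia MC were near their medians over all libraries. In bulk RNA, fewer cells of a type and less RNA per cell cannot be told apart.

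Bcl2l1, the gene of BCL-XL, went in different directions with different mimics and reached 1.5-fold with none. Its MC libraries were at 92.8, 89.1 and 89 CPM. With miR-125b they were at 92.9, 98.5 and 95.2 CPM, a log2 fold change of 0.12 ± 0.036 (SE), adjusted p = 0.0164, and with Plus A at 96.7, 105 and 102 CPM, 0.19 ± 0.047 (SE), adjusted p = 0.00666. Both were small increases outside the MC range. For miR-125b the gap was narrow, at 92.85 CPM in its lowest library against 92.79 CPM in the highest MC library. The miR-125b increase did not pass with total-count scaling or in 1 fit over all libraries. It passed with DESeq2, with no filter on low counts and with the replicate number as a block. It was also lost without Hypoxia miR-125b replicate 2 (adjusted p = 0.0784) and without Hypoxia MC replicate 2 or 3. Plus A passed without each library in turn but not in 1 fit over all libraries. Trim A went the other way without passing, at -0.12 (95% interval -0.27 to 0.028, adjusted p = 0.148), and Trim AG lowered the level to 75.8, 63.9 and 66.7 CPM, -0.33 ± 0.079 (SE), adjusted p = 0.00621. Trim AGU gave the highest level, 116, 102 and 103 CPM, 0.38 ± 0.095 (SE), adjusted p = 0.0243. Bcl2, the founding member of the family, was at 2.35, 2.75 and 2.99 CPM in MC and at 1.68, 2 and 1.97 CPM with miR-125b, where the change passed the test below 1.5-fold, -0.48 ± 0.18 (SE), adjusted p = 0.0377. That pass was lost with DESeq2, with no filter on low counts and in 1 fit over all libraries. It held with total-count scaling and with the replicate number as a block. With 1 library left out, it held only without Hypoxia MC replicate 1, and adjusted p reached 0.115 without Hypoxia MC replicate 3. Bcl2 did not pass with the isomiRs, though the values for Plus A, Trim A and Trim AGU were of similar size. They were -0.50 (95% interval -1.01 to 0.018, adjusted p = 0.0923) for Plus A and -0.45 (95% interval -0.89 to -0.0083, adjusted p = 0.0808) for Trim A. Trim AGU gave -0.52 (95% interval -1.22 to 0.18, adjusted p = 0.22). Plus A was called without Hypoxia Plus A replicate 2 (-0.70, adjusted p = 0.0337). Trim AG was nearest to MC, at -0.048 (95% interval -0.48 to 0.38, adjusted p = 0.844).

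Xiap was lower than MC in every mimic library. The MC libraries were at 16.6, 16 and 18.5 CPM, against 9.35, 11.4 and 11.5 CPM with miR-125b, -0.63 ± 0.099 (SE), adjusted p = 0.000249, on the log2 scale. With Plus A (11.8, 13.7 and 10.4 CPM) it passed below 1.5-fold, -0.49 ± 0.11 (SE), adjusted p = 0.00368. Trim A (12.4, 10.1 and 9.77 CPM) and Trim AG (7.65, 9.14 and 10.8 CPM) were called, at -0.62 (adjusted p = 0.00274) and -0.82 (adjusted p = 0.000975). Trim AGU had 10.5, 1.16 and 13.2 CPM, and the wide spread left -0.94 (95% interval -2.54 to 0.66, adjusted p = 0.319). Without its replicate 2, which stood apart in genes detected and mitochondrial share, the value was -0.44 ± 0.14 (SE), adjusted p = 0.0291. The Xiap calls lay close to the 1.5-fold limit. That under miR-125b was lost without Hypoxia MC replicate 3 (-0.57, adjusted p = 0.00124) and without Hypoxia miR-125b replicate 1 (-0.54, adjusted p = 0.000821), that under Trim A without Hypoxia MC replicate 3 (-0.56, adjusted p = 0.017) and without Hypoxia Trim A replicate 3 (-0.55, adjusted p = 0.0133), and Plus A was called without Hypoxia Plus A replicate 2 (-0.60, adjusted p = 0.00212). One fit over all 33 libraries, which holds the Trim AGU spread, gave no call under miR-125b (-0.62, adjusted p = 0.18), Trim A (-0.61, adjusted p = 0.167) or Trim AG (-0.82, adjusted p = 0.0526), and called Trim AGU (-0.95, adjusted p = 0.0291).

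The genes of the 2 cIAPs were higher. Birc2 was at 53.5, 52 and 53 CPM in MC, and all 15 mimic libraries were above that range. It was at 63, 60.6 and 61.6 CPM with miR-125b, 76, 68.7 and 70.6 with Plus A and 64.2, 75.5 and 69.3 with Trim A. These increases passed the test below 1.5-fold, at log2 fold changes of 0.26 (adjusted p = 0.000164), 0.46 (adjusted p = 5.09e-05) and 0.45 (adjusted p = 0.00209). Trim AG (70.8, 89.6 and 82.4 CPM) was the 1 called, 0.68 ± 0.098 (SE), adjusted p = 0.000399. Trim AGU (56.5, 56.3 and 68.1 CPM) did not pass, 0.33 (95% interval 0.076 to 0.59, adjusted p = 0.0572). Birc3, whose level was lower by more than an order of magnitude, was at 1.55, 1.75 and 1.72 CPM in MC. It was called under Plus A (3.31, 2.43 and 2.23 CPM), 0.69 ± 0.21 (SE), adjusted p = 0.0191, under Trim A (2.83, 2.34 and 2.84 CPM), 0.72 ± 0.18 (SE), adjusted p = 0.0095, and under Trim AG (2.35, 2.6 and 3.05 CPM), 0.74 ± 0.19 (SE), adjusted p = 0.00879. The Plus A call was lost without Hypoxia MC replicate 1 (0.63, adjusted p = 0.0622) and without Hypoxia Plus A replicate 1 (0.50, adjusted p = 0.0718). miR-125b itself gave 0.47 (adjusted p = 0.039), below 1.5-fold, with 2.1, 2.26 and 2.42 CPM. Trim AGU overlapped with MC at 1.69, 1.1 and 1.29 CPM, -0.16 (95% interval -0.74 to 0.41, adjusted p = 0.634).

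Cflar, the gene of cFLIP, overlapped with MC (16.1, 14.5 and 19.5 CPM) under 4 of the 5 mimics, with log2 fold changes of -0.18 (95% interval -0.41 to 0.057, adjusted p = 0.175), -0.081 (95% interval -0.34 to 0.18, adjusted p = 0.583), -0.20 (95% interval -0.47 to 0.074, adjusted p = 0.193) and -0.17 (95% interval -0.74 to 0.41, adjusted p = 0.629) in the order miR-125b, Plus A, Trim A, Trim AGU. Trim AG was higher in all 3 libraries, at 19.8, 23.7 and 21.4 CPM, 0.44 ± 0.12 (SE), adjusted p = 0.0141, which is below 1.5-fold. Hypoxia Trim AG also had the deepest libraries, 39940087 to 42672584 counts.

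Without Hypoxia Trim AGU replicate 2, the count of genes called under Trim AGU stayed at 0 of 7, where 25.8% of all tested genes were called. Besides Bcl2l2 and Xiap, Birc2 passed below 1.5-fold, at 0.32 (adjusted p = 0.0206), and Bcl2l1 passed as before, at 0.36 (adjusted p = 0.00545). Bcl2, Birc3 and Cflar did not pass, at -0.30 (adjusted p = 0.309), -0.086 (adjusted p = 0.798) and 0.048 (adjusted p = 0.796).

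**Figure D2:**
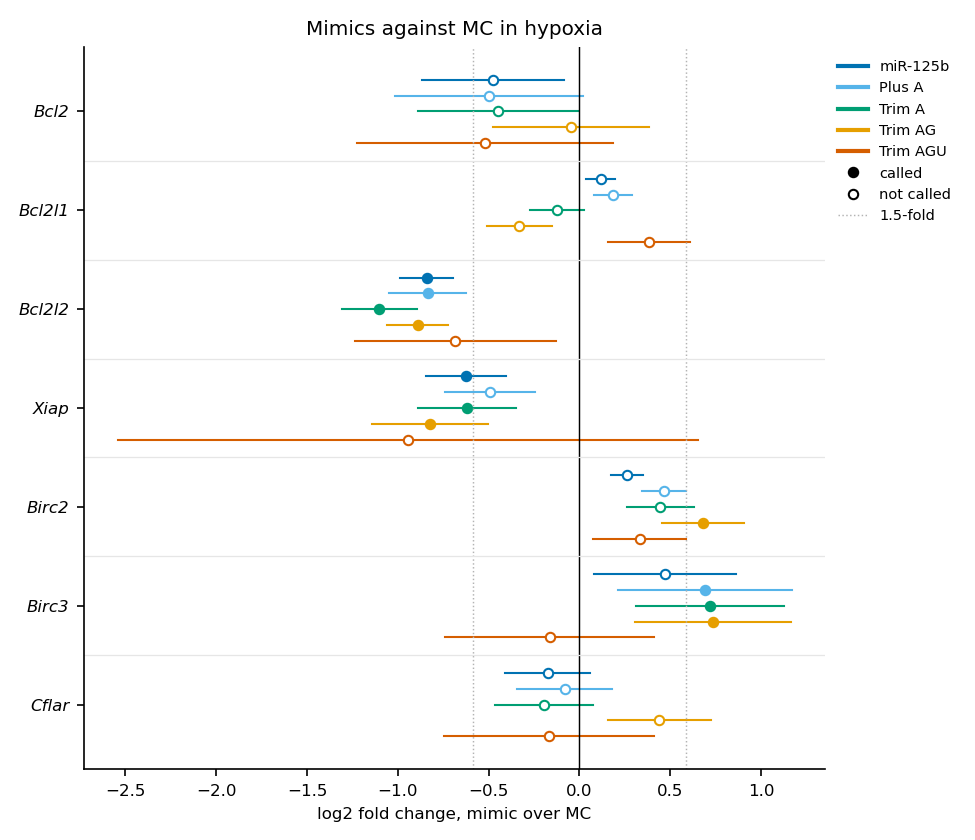
Log2 fold change of each mimic over MC in hypoxia (horizontal axis) for the 7 genes, with 95% intervals from edgeR not adjusted for the number of genes; filled points were called and dotted lines mark 1.5-fold. All 5 Bcl2l2 and Xiap points lie left of 0 and all 5 Birc2 points right of it, and the interval for Xiap under Trim AGU is the widest.

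For normoxia, the MC value was used only as the mean normalized count that the authors gave beside Normoxia Plus A, which has no error and allows no test. Bcl2l2 was again the gene with the largest gap, at 1427 in Normoxia MC and 659 in Normoxia Plus A, a ratio of 2.17. Xiap was at 508 and 368, and Bcl2l1 at 2321 and 2973. Birc2 was at 1481 and 1299, Cflar at 682 and 625, Bcl2 at 101 and 84.6, and Birc3 at 74.7 and 78.7. The Plus A mean includes the library whose label is in doubt.

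The second comparison asked whether the isomiRs, which share a seed and differ in 1 to 3 bases at the 3' end, differed from miR-125b itself at the same dose and time. There were 4 isomiRs in each oxygen condition, so 8 pairs were compared, each with p-values adjusted over all genes. In hypoxia, 1 of 7 genes was called for Trim AG, where 19.3% of all tested genes were, and 0 for each of Plus A (2.03% of all), Trim A (0.873%) and Trim AGU (3.75%). In normoxia, 3 were called with Trim AG (13.9%), 3 with Trim AGU (11.4%) and 0 with Plus A (0%) or Trim A (0.414%). For the counts of 0, edgeR gave 1, 2 and 2 genes with an unadjusted p under 0.05 for Plus A, Trim A and Trim AGU in hypoxia and 0 and 2 for Plus A and Trim A in normoxia, and DESeq2 called 0 of the 7 in each. Over all tested genes in hypoxia, 4723 of 15134, 3547 of 15115 and 3691 of 15051 had such a p. For Trim A in normoxia, 2758 of 14732 did. For Plus A in normoxia, where edgeR called 0 of 14781 genes, 404 had an unadjusted p under 0.05 and DESeq2 called 1 gene. Without the 2 libraries in doubt, which both belong to this comparison, edgeR called 166 of 14856 genes (1.12%) and 0 of the 7, whose lowest adjusted p was that of Xiap (-0.30, adjusted p = 0.242). Comparisons within an oxygen condition share the 3 miR-125b libraries.

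In normoxia the isomiRs without AG or AGU had the clearest differences. Bcl2l1 was at 96.7, 97.6 and 99 CPM with miR-125b and at 52.9, 52.2 and 54.7 CPM with Trim AG, so the groups were far apart, and the log2 fold change was -0.92 ± 0.049 (SE), adjusted p = 6.29e-06. Trim A (76.9, 73.1 and 77.7 CPM) and Trim AGU (83.9, 66.9 and 82.2 CPM) were lower by less than 1.5-fold, at -0.36 (adjusted p = 0.0173) and -0.34 (adjusted p = 0.0324). Plus A overlapped with miR-125b, at 0.039 (95% interval -0.083 to 0.16, adjusted p = 0.997). In hypoxia Trim AG was lower as well, at -0.46 ± 0.076 (SE), adjusted p = 0.00212, and Trim A was below all miR-125b libraries without passing, at -0.25 (95% interval -0.39 to -0.10, adjusted p = 0.0844). Trim AGU lay above them without passing, at 0.25 (95% interval 0.035 to 0.47, adjusted p = 0.163).

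Bcl2 in normoxia was at 2.3, 3.27 and 2.61 CPM with miR-125b and at 3.61, 5.05 and 5.34 CPM with Trim AG. The call for Trim AG was 0.73 ± 0.20 (SE), adjusted p = 0.019. It was lost without Normoxia miR-125b replicate 1 (0.63, adjusted p = 0.0525) and without Normoxia miR-125b replicate 3 (0.70, adjusted p = 0.0582). It was also lost without Normoxia Trim AG replicate 2 (0.67, adjusted p = 0.0641) and without Normoxia Trim AG replicate 3 (0.63, adjusted p = 0.0764). Trim AGU (3.22, 4.76 and 3.57 CPM) gave 0.49 (95% interval 0.00030 to 0.98, adjusted p = 0.132). In hypoxia none passed, with values from -0.055 for Trim AGU to 0.42 (95% interval -0.0059 to 0.85, adjusted p = 0.103) for Trim AG. Bcl2l2 in normoxia was above miR-125b (24.1, 23 and 25.3 CPM) in all 3 libraries of Trim AGU (29.8, 28.2 and 38.4 CPM), 0.41 ± 0.12 (SE), adjusted p = 0.038, below 1.5-fold. The same gene overlapped with miR-125b in hypoxia under all 4 isomiRs, where the values ran from -0.26 for Trim A to 0.15 (95% interval -0.42 to 0.71, adjusted p = 0.728) for Trim AGU.

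Among the IAP genes, Birc3 in normoxia was lower than with miR-125b (3.01, 3.2 and 3.23 CPM) in every isomiR library. Trim AG (2.36, 1.43 and 1.8 CPM) was called, -0.80 ± 0.20 (SE), adjusted p = 0.0126, and held without each library in turn. Trim AGU (1.8, 2.07 and 1.95 CPM) was called too, -0.71 ± 0.18 (SE), adjusted p = 0.019, but not without Normoxia miR-125b replicate 2 (-0.69, adjusted p = 0.0676), without Normoxia miR-125b replicate 3 (-0.69, adjusted p = 0.063), without Normoxia Trim AGU replicate 1 (-0.66, adjusted p = 0.0536) and without Normoxia Trim AGU replicate 3 (-0.70, adjusted p = 0.0611). Plus A and Trim A did not pass, at -0.24 (95% interval -0.62 to 0.13, adjusted p = 0.997) and -0.35 (95% interval -0.79 to 0.093, adjusted p = 0.383). In hypoxia Trim AGU was again lower in all libraries without passing, -0.65 (95% interval -1.20 to -0.097, adjusted p = 0.16), and was called in 1 fit over all libraries (-0.64, adjusted p = 0.0125). Xiap in normoxia was at 12.2, 13.3 and 14.5 CPM with miR-125b and 15.9, 24.5 and 24.6 CPM with Trim AGU, 0.69 ± 0.17 (SE), adjusted p = 0.0148. That call was lost without Normoxia miR-125b replicate 1 (0.63, adjusted p = 0.0584) and without Normoxia Trim AGU replicate 3 (0.60, adjusted p = 0.0619), and in 1 fit over all libraries (0.69, adjusted p = 0.169). In hypoxia the Xiap intervals were wide, from -0.56 to 0.14 for Trim AG to -1.94 to 1.28 for Trim AGU.

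Birc2 showed no difference that passed in normoxia, where the 4 values lay between -0.079 and 0.0030 and the intervals were narrow, from -0.20 to 0.043 for Trim AG to -0.19 to 0.19 for Trim AGU. In hypoxia it was higher with Plus A, 0.20 ± 0.049 (SE), adjusted p = 0.0261, and with Trim AG, 0.41 ± 0.099 (SE), adjusted p = 0.0115, both below 1.5-fold and with no overlap with the miR-125b libraries (63, 60.6 and 61.6 CPM). Trim A lay above them too without passing, 0.18 (95% interval -0.0032 to 0.36, adjusted p = 0.219), and Trim AGU overlapped, 0.059 (95% interval -0.20 to 0.32, adjusted p = 0.763).

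Cflar was higher with Trim AG in both conditions. In hypoxia it was at 13.3, 14.5 and 15.4 CPM with miR-125b and 19.8, 23.7 and 21.4 CPM with Trim AG, 0.61 ± 0.10 (SE), adjusted p = 0.00246. This was the 1 call among the 7 genes in hypoxia, and the value fell under 1.5-fold without Hypoxia miR-125b replicate 1 (0.56, adjusted p = 0.016) and without Hypoxia Trim AG replicate 2 (0.52, adjusted p = 0.00205). In normoxia it was at 18.5, 20.6 and 22.4 CPM with miR-125b, 29.1, 32 and 29.8 CPM with Trim AG and 28.8, 32.2 and 37.3 CPM with Trim AGU. No library of either isomiR overlapped with miR-125b. Trim AG gave 0.52 ± 0.085 (SE), adjusted p = 0.00125, short of 1.5-fold, and was called without Normoxia miR-125b replicate 3 (0.59, adjusted p = 0.00174). Trim AGU was called, 0.67 ± 0.12 (SE), adjusted p = 0.00347, but not without Normoxia Trim AGU replicate 3 (0.58, adjusted p = 0.015). Plus A and Trim A differed little in either condition, with intervals of -0.12 to 0.31 and -0.24 to 0.19 in hypoxia and -0.17 to 0.26 and -0.10 to 0.29 in normoxia. Without the 2 libraries in doubt, 2 of the 7 genes were called for Trim AG in normoxia (13.1% of all tested genes), 2 for Trim AGU (9.53%) and 0 for Trim A (0.6%). Under Trim AGU, Bcl2l1 (-0.35, adjusted p = 0.0725) and Bcl2l2 (0.41, adjusted p = 0.0958) then no longer passed, and under Trim A Bcl2l1 still did (-0.36, adjusted p = 0.0112). Without Hypoxia Trim AGU replicate 2, 0 of the 7 were called for Trim AGU in hypoxia (8.46% of all tested genes), Bcl2l2 passed below 1.5-fold (0.37, adjusted p = 0.0412), and Bcl2 (0.16, adjusted p = 0.636), Xiap (0.17, adjusted p = 0.462) and Cflar (0.21, adjusted p = 0.198) turned to values above 0 that did not pass.

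**Figure D3:**
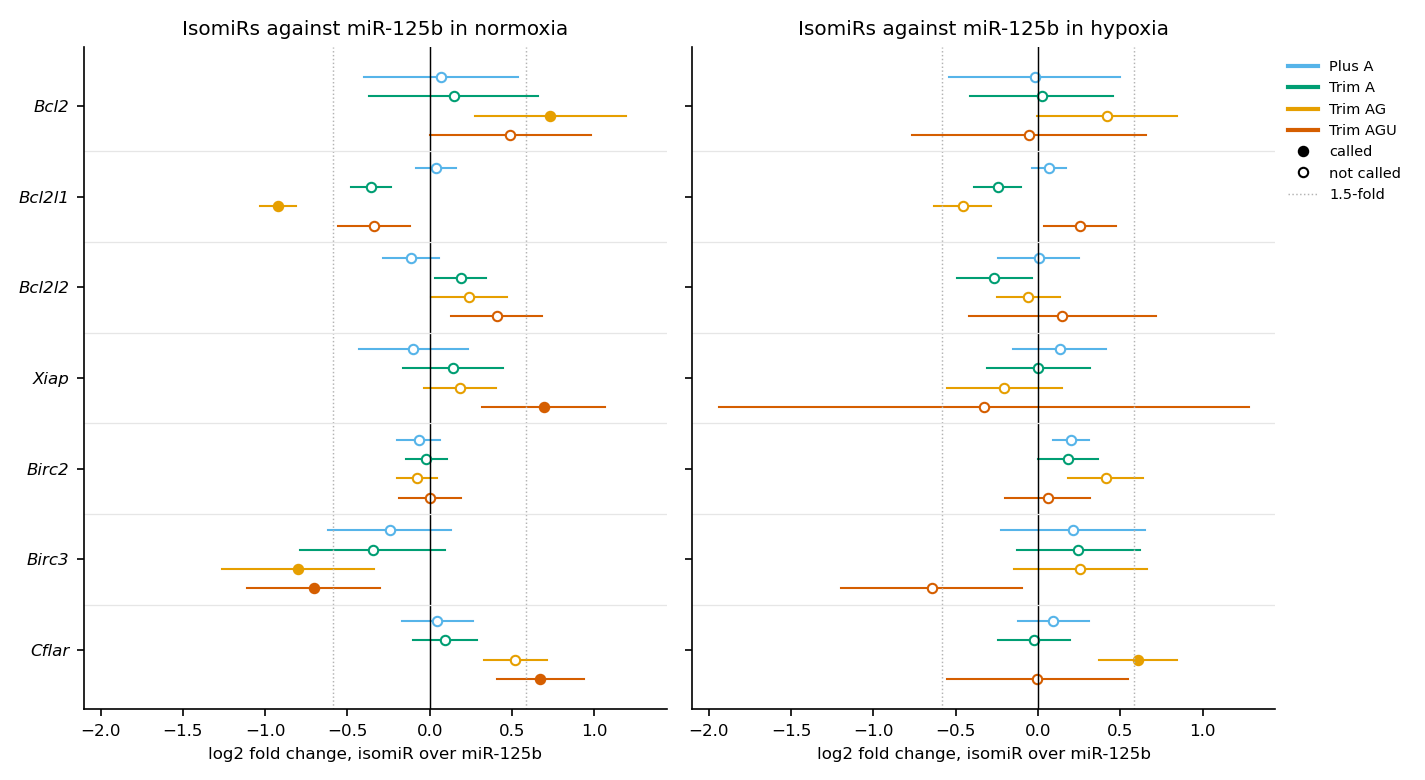
Log2 fold change of each isomiR over miR-125b (horizontal axes) in normoxia (left) and hypoxia (right), with 95% intervals from edgeR not adjusted for the number of genes; filled points were called and dotted lines mark 1.5-fold. The Trim AG and Trim AGU points carry all 7 calls, and those of Plus A lie close to 0.

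The third comparison set hypoxia against normoxia under the same mimic. Bcl2 was lower in hypoxia under all 5 mimics, Cflar was lower and Birc2 higher, each with an adjusted p under 0.05 in 5, 5 and 4 of the comparisons. By edgeR, 30.2% to 54.7% of all tested genes had an adjusted p under 0.05 in these comparisons. Of the 7 genes, 2 were called under miR-125b (20.9% of all tested genes), 2 under Plus A (22.8%), 2 under Trim A (26.5%), 3 under Trim AG (32.8%) and 2 under Trim AGU (27%). Of these 11 calls 9 were lower in hypoxia and 2 higher, while 43.9% to 50.5% of all called genes were higher. The 11 calls repeat few genes and are not separate observations: 5 were of Bcl2, 3 of Cflar, 2 of Birc2 and 1 of Xiap. With total-count scaling there were 9 calls, 6 lower and 3 higher, and 45.0% to 56.5% of all called genes were higher. Without the libraries in doubt 3 genes were called under miR-125b (20.3% of all tested genes) and 1 under Plus A (21.9%), and without Hypoxia Trim AGU replicate 2 there were 3 under Trim AGU (28.8%). The median log2 fold change of the 7 genes was -0.39, -0.11, -0.30, -0.13 and -0.48, against 0.0037 to 0.020 for all genes. Scaling by total counts shifted the median of all genes by 0.11 under Plus A and by less under the others.

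Bcl2 was called under each mimic. With miR-125b it was at 2.3, 3.27 and 2.61 CPM in normoxia and 1.68, 2 and 1.97 CPM in hypoxia, -0.61 ± 0.20 (SE), adjusted p = 0.0261. With Plus A the groups overlapped, at 2.37, 3.06 and 3.09 CPM and 1.37, 2.39 and 1.88 CPM, -0.71 ± 0.25 (SE), adjusted p = 0.0372. With Trim A they were at 2.29, 3.79 and 2.9 CPM and 2.22, 1.87 and 1.65 CPM, -0.72 ± 0.23 (SE), adjusted p = 0.0313. The direction was the same throughout, and the gap was wider with the shorter isomiRs, though the differences between mimics were not called. Trim AG gave 3.61, 5.05 and 5.34 CPM in normoxia and 2.81, 2.08 and 2.6 CPM in hypoxia, -0.90 ± 0.20 (SE), adjusted p = 0.00484, and this was the call that held without each library in turn. Trim AGU gave 3.22, 4.76 and 3.57 CPM and 2.35, 1.04 and 1.79 CPM, -1.13 ± 0.32 (SE), adjusted p = 0.0325. Without 1 library some values were as large as with all 6, but the other 4 calls were each lost in several such fits. That under miR-125b was lost without Normoxia miR-125b replicate 2 (-0.46, adjusted p = 0.0901), without Hypoxia miR-125b replicate 1 (-0.54, adjusted p = 0.0847), without Hypoxia miR-125b replicate 2 (-0.65, adjusted p = 0.0527) and without Hypoxia miR-125b replicate 3 (-0.64, adjusted p = 0.0557), with DESeq2 (-0.62, adjusted p = 0.0586), with total-count scaling (-0.53, adjusted p = 0.046) and in 1 fit over all libraries (-0.59, adjusted p = 0.0587). That under Plus A was lost without Normoxia Plus A replicate 2 (-0.65, adjusted p = 0.0998), without Normoxia Plus A replicate 3 (-0.64, adjusted p = 0.104), without Hypoxia Plus A replicate 1 (-0.53, adjusted p = 0.0999) and without Hypoxia Plus A replicate 3 (-0.70, adjusted p = 0.0822), and with total-count scaling (-0.60, adjusted p = 0.0657). That under Trim A was lost without Normoxia Trim A replicate 2 (-0.52, adjusted p = 0.125), without Normoxia Trim A replicate 3 (-0.76, adjusted p = 0.0689), without Hypoxia Trim A replicate 2 (-0.72, adjusted p = 0.0715) and without Hypoxia Trim A replicate 3 (-0.63, adjusted p = 0.099), and with the replicate number as a block (-0.71, adjusted p = 0.0544). That under Trim AGU was lost without Normoxia Trim AGU replicate 1 (-1.24, adjusted p = 0.0672), without Normoxia Trim AGU replicate 2 (-0.96, adjusted p = 0.119), without Normoxia Trim AGU replicate 3 (-1.20, adjusted p = 0.0878) and without Hypoxia Trim AGU replicate 3 (-1.14, adjusted p = 0.0853), and with the block (-1.16, adjusted p = 0.0839). Without the libraries in doubt, Bcl2 was called under miR-125b (-0.72, adjusted p = 0.0147) and Plus A (-0.84, adjusted p = 0.0248), and without Hypoxia Trim AGU replicate 2 under Trim AGU (-0.92, adjusted p = 0.0207).

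Bcl2l1 and Bcl2l2, the other BCL2-like genes, were called under no mimic. Bcl2l1 was higher in hypoxia with Trim AG, 0.37 ± 0.081 (SE), adjusted p = 0.00394, and with Trim AGU, 0.50 ± 0.14 (SE), adjusted p = 0.0315, and in both the libraries of the 2 conditions did not overlap. With miR-125b, Plus A and Trim A it did not pass, at -0.12 (95% interval -0.22 to -0.018, adjusted p = 0.0506), -0.095 (95% interval -0.23 to 0.039, adjusted p = 0.215) and 0.0050 (95% interval -0.16 to 0.17, adjusted p = 0.96). The miR-125b value passed without Normoxia miR-125b replicate 1, at -0.12 (adjusted p = 0.0336). Bcl2l2 passed with Trim A alone among the 5, -0.30 ± 0.095 (SE), adjusted p = 0.0285, and its other values were 0.14 (95% interval -0.031 to 0.32, adjusted p = 0.154) for miR-125b, 0.26 (95% interval 0.016 to 0.50, adjusted p = 0.073) for Plus A, -0.13 (95% interval -0.36 to 0.11, adjusted p = 0.33) for Trim AG and -0.093 (95% interval -0.68 to 0.50, adjusted p = 0.801) for Trim AGU.

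Birc2 was higher in hypoxia with an adjusted p under 0.05 under 4 mimics. Per total count, the 18 hypoxia libraries were at 52.0 to 89.6 CPM and the 15 normoxia libraries at 42.4 to 49.6 CPM, and with TMM scaling the ranges met, at 49.7 to 90.1 against 43.0 to 50.2 CPM. Plus A went from 43.4, 44.6 and 43.2 CPM in normoxia to 76, 68.7 and 70.6 CPM in hypoxia, 0.61 ± 0.062 (SE), adjusted p = 3.57e-05. Trim AG went from 43.9, 46.2 and 44.7 to 70.8, 89.6 and 82.4 CPM, 0.86 ± 0.10 (SE), adjusted p = 0.000126. These were the 2 calls, and that under Plus A was lost without Normoxia Plus A replicate 1 (0.58, adjusted p = 0.000125) and without Hypoxia Plus A replicate 1 (0.56, adjusted p = 0.000147), so also without both libraries in doubt. Trim A and miR-125b passed below 1.5-fold, at 0.55 (adjusted p = 0.000831) and 0.34 (adjusted p = 0.000493), and Trim A was called without Hypoxia Trim A replicate 1 (0.62, adjusted p = 1.13e-05) and with total-count scaling (0.63, adjusted p = 0.00035). Trim AGU did not pass, 0.42 (95% interval 0.098 to 0.74, adjusted p = 0.0542), but did below 1.5-fold without Hypoxia Trim AGU replicate 2 (0.40, adjusted p = 0.0301). Its neighbour Birc3 went in different directions, with a decrease under miR-125b below 1.5-fold, -0.56 ± 0.16 (SE), adjusted p = 0.0149, that was called without Normoxia miR-125b replicate 1 (-0.59, adjusted p = 0.0206) and without Hypoxia miR-125b replicate 3 (-0.61, adjusted p = 0.0298). Under Trim AG it gave 0.52 (95% interval 0.0072 to 1.04, adjusted p = 0.0797), and was called without Normoxia Trim AG replicate 1 (0.73, adjusted p = 0.0374). Plus A, Trim A and Trim AGU gave -0.11 (95% interval -0.58 to 0.37, adjusted p = 0.703), 0.041 (95% interval -0.44 to 0.52, adjusted p = 0.886) and -0.48 (95% interval -1.10 to 0.14, adjusted p = 0.207).

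Xiap was lower in hypoxia with an adjusted p under 0.05 under 3 mimics. It was called under Trim AG, at 14.5, 16.1 and 16.3 CPM in normoxia and 7.65, 9.14 and 10.8 CPM in hypoxia, -0.76 ± 0.14 (SE), adjusted p = 0.00177, though not in 1 fit over all libraries (-0.76, adjusted p = 0.0793). Under miR-125b and Trim A the decrease was below 1.5-fold, at -0.39 (adjusted p = 0.0175) and -0.52 (adjusted p = 0.0208), and Trim A was called without Normoxia Trim A replicate 1 (-0.64, adjusted p = 0.0141) and without Hypoxia Trim A replicate 1 (-0.63, adjusted p = 0.00521). Plus A gave -0.17 (95% interval -0.51 to 0.18, adjusted p = 0.403). Under Trim AGU the groups did not overlap, at 15.9, 24.5 and 24.6 CPM and 10.5, 1.16 and 13.2 CPM, yet the value did not pass, -1.39 (95% interval -2.93 to 0.15, adjusted p = 0.147). It was called without Hypoxia Trim AGU replicate 2 (-0.90, adjusted p = 0.00731), the library with the highest mitochondrial share, and in 1 fit over all libraries (-1.39, adjusted p = 0.00185). In that library Xiap was 10.2 times lower than the mean of replicates 1 and 3, against 1.95 times for Cflar, 2.03 times for Bcl2l2 and 1.08 times for Bcl2l1.

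Cflar was lower in hypoxia with an adjusted p under 0.05 under all 5 mimics and with no overlap in any. It was called under miR-125b, from 18.5, 20.6 and 22.4 CPM in normoxia to 13.3, 14.5 and 15.4 CPM in hypoxia, -0.59 ± 0.093 (SE), adjusted p = 0.00063. It was also called under Trim A, from 22.1, 20.6 and 22.5 to 14, 13.4 and 14.8 CPM, -0.70 ± 0.089 (SE), adjusted p = 0.000333. Trim AGU had the widest gap, from 28.8, 32.2 and 37.3 to 15.8, 8.35 and 16.8 CPM, -1.24 ± 0.24 (SE), adjusted p = 0.00882, and -1.04 ± 0.15 (SE), adjusted p = 0.000453, without Hypoxia replicate 2. Plus A and Trim AG stayed below 1.5-fold, at -0.55 (adjusted p = 0.00153) and -0.48 (adjusted p = 0.00245). The miR-125b value lay at the limit, and was not called without Normoxia miR-125b replicate 3 (-0.53, adjusted p = 0.00261) and without Hypoxia miR-125b replicate 1 (-0.54, adjusted p = 0.00438), with total-count scaling (-0.51, adjusted p = 0.00167) or in 1 fit over all libraries (-0.57, adjusted p = 0.00254). Plus A was called without Normoxia Plus A replicate 3 (-0.60, adjusted p = 0.00325) and without Hypoxia Plus A replicate 2 (-0.60, adjusted p = 0.00391). The mitochondrial share of counts was 4.45% to 5.70% in replicates 2 and 3 of Hypoxia Trim A, Trim AG and Trim AGU and 3.15% to 4.16% in the other libraries, and its part in these results was not tested.

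**Figure D4:**
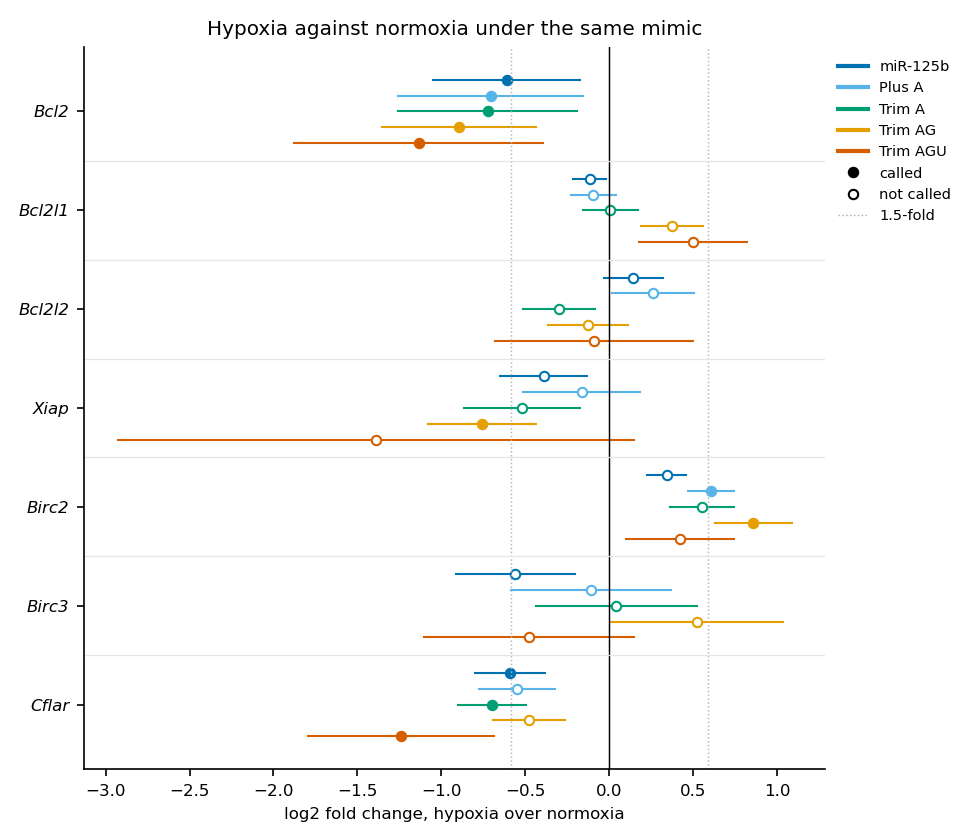
Log2 fold change of hypoxia over normoxia under each mimic (horizontal axis) for the 7 genes, with 95% intervals from edgeR not adjusted for the number of genes; filled points were called and dotted lines mark 1.5-fold. All Bcl2 and Cflar points lie left of 0 and all Birc2 points right of it.

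The promoter windows of Bcl2 and Cflar, lower in hypoxia, and of Birc2, higher in hypoxia, are shown because these genes carried most of the oxygen calls. RefSeq (GRCr8) gave windows of 250 bases before to 50 after the annotated start for 5 of the 7 genes. They were searched on both strands for ACGTG or GCGTG, the core that hypoxia-inducible factors bind, and capitals mark a match on the strand shown or, for Cflar, its reverse complement.
Bcl2, chr13:23366851-23367150, minus strand: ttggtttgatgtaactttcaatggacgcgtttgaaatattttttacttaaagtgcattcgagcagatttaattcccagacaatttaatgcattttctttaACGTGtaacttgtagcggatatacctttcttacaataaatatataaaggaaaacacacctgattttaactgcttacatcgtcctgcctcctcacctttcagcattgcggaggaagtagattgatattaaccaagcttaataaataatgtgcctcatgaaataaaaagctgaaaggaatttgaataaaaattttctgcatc
Cflar, chr9:67679299-67679598, plus strand: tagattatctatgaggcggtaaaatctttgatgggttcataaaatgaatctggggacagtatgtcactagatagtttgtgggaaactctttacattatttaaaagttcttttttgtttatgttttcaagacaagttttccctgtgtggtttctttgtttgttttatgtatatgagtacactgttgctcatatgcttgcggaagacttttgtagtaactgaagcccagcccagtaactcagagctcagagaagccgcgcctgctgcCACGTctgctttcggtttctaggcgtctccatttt
Birc2, chr8:13271491-13271790, minus strand: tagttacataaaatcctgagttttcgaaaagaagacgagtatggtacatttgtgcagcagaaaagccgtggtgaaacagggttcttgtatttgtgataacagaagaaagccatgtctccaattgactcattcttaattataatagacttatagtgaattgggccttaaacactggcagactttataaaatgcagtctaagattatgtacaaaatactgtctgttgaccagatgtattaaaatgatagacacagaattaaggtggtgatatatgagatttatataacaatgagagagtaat
The Bcl2 and Cflar windows held 1 match each and the Birc2 window held none of these letters. Bcl2l1 had a match in 2 of its 4 windows and Bcl2l2 in none. Over all 33469 windows of the same length, 41.6% held a match, so its presence in 4 of the 8 windows of these genes is a description and says nothing of binding. Xiap and Birc3 are named only.

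The fourth comparison tested whether the isomiR difference from miR-125b itself changed with oxygen, by the interaction term over the 12 libraries of 4 groups. Of the 7 genes, 1 was called with Trim AG, where 11.3% of all tested genes were, and 0 with Plus A (0.0193%), Trim A (0.605%) or Trim AGU (0.966%). For the counts of 0, edgeR gave 1, 3 and 2 genes with an unadjusted p under 0.05 for Plus A, Trim A and Trim AGU, and DESeq2 called 0, 0 and 1 (Bcl2l1). Over all tested genes, 2509 of 15569, 3481 of 15534 and 3430 of 15525 had such a p. DESeq2 called 743 of 13078 genes with Trim AGU.

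Birc3 was the gene called. With miR-125b it went from 3.01, 3.2 and 3.23 CPM in normoxia to 2.1, 2.26 and 2.42 CPM in hypoxia, and with Trim AG from 2.36, 1.43 and 1.8 to 2.35, 2.6 and 3.05 CPM. The decrease with miR-125b passed its own test and the value with Trim AG, 0.52 (adjusted p = 0.0797), did not. The difference between these changes was the interaction, 1.05 ± 0.27 (SE), adjusted p = 0.015. It was called without each library in turn and without the 2 libraries in doubt. Bcl2l1 and Birc2 passed below 1.5-fold. Bcl2l1 was at 52.9, 52.2 and 54.7 CPM in Normoxia Trim AG and 75.8, 63.9 and 66.7 CPM in Hypoxia Trim AG, against 96.7, 97.6 and 99 and 92.9, 98.5 and 95.2 CPM with miR-125b, 0.45 ± 0.089 (SE), adjusted p = 0.00364. For Birc2 the interaction with Trim AG was 0.48 ± 0.12 (SE), adjusted p = 0.0117, on top of the rise in hypoxia with miR-125b. Trim AGU gave a larger Bcl2l1 interaction that did not pass, 0.63 (95% interval 0.33 to 0.93, adjusted p = 0.0577), was called without Hypoxia Trim AGU replicate 1 (0.61, adjusted p = 0.0197), and passed below 1.5-fold without replicate 2 (0.56, adjusted p = 0.0304). For Bcl2 under Trim AGU, where hypoxia gave the lowest log2 fold change, the interaction was -0.52 (95% interval -1.31 to 0.28, adjusted p = 0.415), and for Cflar -0.64 (95% interval -1.20 to -0.083, adjusted p = 0.185), so neither was shown to differ from miR-125b. Scaling by total counts shifted the median of all genes by -0.13 in the Trim AGU interaction. Without the 2 normoxia libraries in doubt, the Trim AG interactions were 1.08 for Birc3 (adjusted p = 0.0247), 0.46 for Bcl2l1 (adjusted p = 0.00672) and 0.51 for Birc2 (adjusted p = 0.0169), and 9.92% of all tested genes were called.

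**Figure D5:**
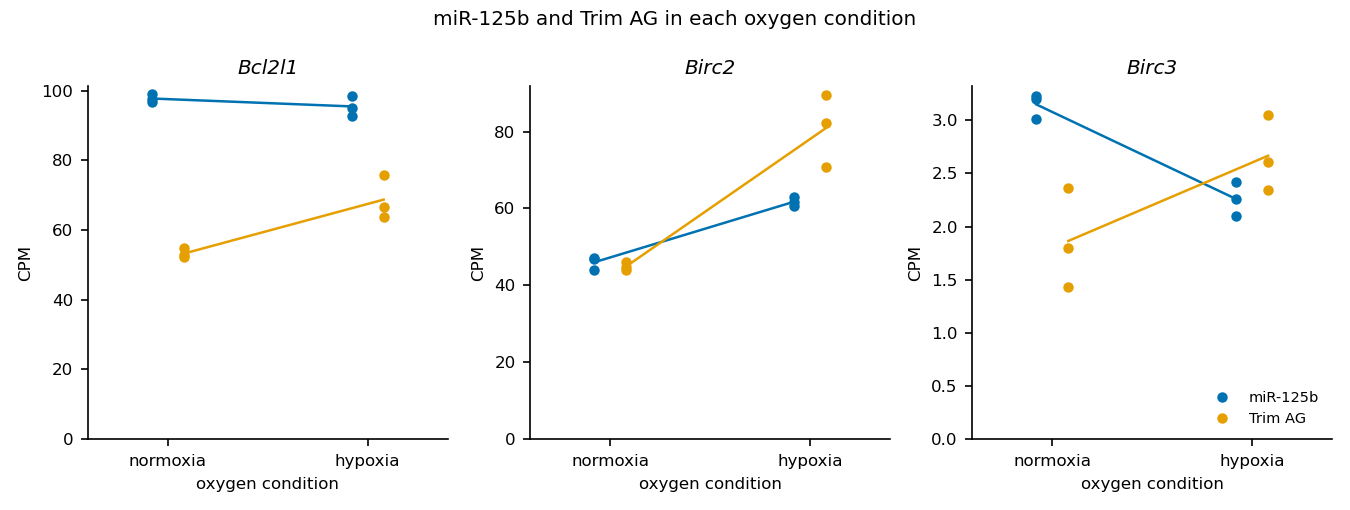
CPM (vertical axes, from 0) of Bcl2l1, Birc2 and Birc3 in normoxia and hypoxia (horizontal axes) with miR-125b and Trim AG; points are the 3 libraries of a group and lines join the group means. The Birc3 lines cross, the Birc2 groups are alike in normoxia and apart in hypoxia, and the Bcl2l1 gap is narrower in hypoxia.

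Of 48 symbols of pathway partners listed in 6 groups, 42 were found. The pro-apoptotic BCL2 genes, whose products the BCL2-like proteins hold in check, had 8 tested members. Against MC in hypoxia, 1 to 3 of them were called higher and 2 lower under each mimic, where 21.9% to 37.2% of all tested genes were called in either direction. Bmf, which frees BAX and BAK by binding BCL2-like proteins, was lower under all 5, and with Trim AG it was at 4.82 ± 0.826 against 36.8 ± 1.8 CPM (SD, n = 3 libraries each), a log2 fold change of -2.87 ± 0.12 (SE), adjusted p = 7.93e-07. The miR-125b mimic itself gave -1.52 ± 0.089 (SE), adjusted p = 1.17e-07. Bok, a BAX relative, was higher under all 5, from 1.13 with Plus A to 1.88 with Trim AG. In hypoxia against normoxia, Bax itself was higher with Trim A (0.82 ± 0.10 (SE), adjusted p = 0.000289), Trim AG (0.79 ± 0.081 (SE), adjusted p = 5.44e-05) and Trim AGU (1.34 ± 0.22 (SE), adjusted p = 0.00514).

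Among the other pro-survival genes, 3 of 8 symbols were tested, and Birc5, which encodes survivin, an IAP-family protein of dividing cells, was higher than MC under all 5 mimics in hypoxia, from 1.08 with Plus A to 2.90 with Trim AG. It also exceeded miR-125b with Trim AG and Trim AGU in both conditions, by 1.47 and 1.41 in hypoxia and 1.10 and 0.87 in normoxia. Of 11 caspases and death-receptor partners, all 11 were tested, with 1 or 2 called higher and 2 to 4 lower than MC, where 21.9% to 37.2% of all genes were called in either direction. Casp8 and Tradd, partners of cFLIP and the cIAPs at death receptors, were reduced by Trim AG relative to miR-125b in hypoxia, at -1.13 ± 0.12 (SE), adjusted p = 0.000226, and -1.01 ± 0.080 (SE), adjusted p = 6.06e-05. Fadd, the adaptor that binds cFLIP, was lower in hypoxia under miR-125b, Plus A, Trim A and Trim AGU, from -1.16 to -0.63.

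Of 10 NF-kB response genes, which read the pathway that the cIAPs feed, 2 or 3 were called higher in hypoxia than in normoxia under each mimic and 0 or 1 lower, where edgeR tested 9 or 10. Of all tested genes, 20.9% to 32.8% were called in either direction in these comparisons. Relb, a subunit of the non-canonical arm, was higher under all 5, from 1.49 with Plus A to 2.27 with Trim AG. Il6 was higher under miR-125b and the 3 trimmed isomiRs, from 0.65 to 1.89. Of the IAP antagonists 3 of 5 symbols were tested, and at most 1 was called higher and at most 1 lower in a comparison. Under miR-125b and Plus A against MC in hypoxia there was 1 of each, where 21.9% and 24.8% of all tested genes were called. None of the 3 ubiquitin pathway genes that set MCL1 turnover was called by edgeR in any comparison: of the 66 values, 0 were called, 14 had an unadjusted p under 0.05, and DESeq2 called 0. Per comparison, from 404 of 14781 to 9759 of 15315 tested genes had an unadjusted p under 0.05.

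The 2 genes most like each of the 7 were found by Pearson's r of log2 CPM over the 33 libraries, centred within each oxygen condition, among 16292 named genes. Libraries of a group share their mimic, so r is a description. For Bcl2 they were Ptpn21 (r = 0.81) and Tns3 (r = 0.81), for Bcl2l1 Snx21 (r = 0.87) and Creb3 (r = 0.87) and for Bcl2l2 Shc1 (r = 0.92) and Kank2 (r = 0.92). For Xiap they were Zfp106 (r = 0.96) and Pcgf3 (r = 0.95), the highest of all, for Birc3 Mdfic (r = 0.85) and Xpot (r = 0.84) and for Cflar Nup160 (r = 0.90) and Atl2 (r = 0.90). Xiap was at only 1.16 CPM in Hypoxia Trim AGU replicate 2, and the part of that library in its r was not tested. Over the 15 normoxia libraries alone the Xiap values were 0.93 for Zfp106 and 0.82 for Pcgf3. Birc2 went with Abce1 (r = 0.90) and Ppil4 (r = 0.90), but over the 15 normoxia libraries alone these were 0.070 and 0.44, where Birc2 itself varied between 42.4 and 49.6 CPM. None of the 7 was among the genes most like another of them.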

How the data were processed

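Poly-A RNA of H9C2 cells was sequenced in 36 libraries of 12 groups. The authors aligned reads and deposited, in 11 tables of pairs of groups, raw counts per gene and FPKM per library (HISAT2 and StringTie are named in the submitters' processing notes; the genome build and counting rules are not given in the sources used here). The deposited mean normalized counts of Normoxia MC and Normoxia Plus A, a signal on the scale of library-normalized counts, were used as the authors' means. Columns of the authors' comparisons (fold changes, p-values) and other columns of normalized counts were not used. Libraries are non-stranded, so antisense reads cannot be told apart.

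The 11 tables were joined on gene identifier (33 libraries, 24275 genes, 28361216 to 42672584 counts, absent genes set to 0, 0 conflicts between tables). No library pair of a group agreed within sampling noise (chi-square per gene 4.97 to 236), so each counted as 1 sample. CPM were counts scaled to the library's total. Each pair of groups was fitted on its 6 libraries with edgeR 4.0.16 in R 4.3.3 (TMM, filterByExpr, quasi-likelihood test, 14720 to 15603 genes tested), in 18 comparisons of pairs and 4 interactions of 12 libraries. All 7 genes passed the filter in each. P-values were adjusted by Benjamini-Hochberg over all genes tested, and a gene was called at an adjusted p under 0.05 and at least 1.5-fold. Likeness used log2 CPM with a prior count of 2. Alternatives were DESeq2 1.42.0, total-count scaling, no filter, other fold limits, 1 fit of all libraries, a replicate block, each library left out, both doubted libraries left out and, chosen after seeing the data, Hypoxia Trim AGU replicate 2 left out as a library that stands apart. The scripts were tested on simulated data. Tables were made with Python 3.11.15, numpy 2.4.6, pandas 2.3.3 and scipy 1.17.1, and plots with matplotlib 3.10.9.

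Named were the 7 genes in every comparison, called partner genes averaging 1 CPM or more whose groups did not overlap (at most 6 per comparison, by size of change), and the 2 genes most like each of the 7. The members and the lists were chosen with earlier results of these data known. Same-number correlations of deviations from the group means ran from -0.16 to 0.074 in the 18 comparisons of pairs. None of these set an isomiR against another isomiR. In hypoxia, the mitochondrial share in replicates 1, 2 and 3 was 3.4%, 5.0% and 4.5% with Trim A. It was 3.5%, 5.3% and 4.6% with Trim AG and 3.3%, 5.7% and 4.4% with Trim AGU. Whether a replicate number marks a shared batch in these groups was not tested. A partner gene that the naming rule selected is not reported here.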

Additional observations from a re-analysis of the deposited data

Results flagged for a closer look

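Of the 28 interaction values, 3 were flagged because the difference between Trim AG and miR-125b was not the same in normoxia and in hypoxia. The test was of the difference itself, edgeR's interaction term over 12 libraries with adjustment over all genes. All 3 were of Trim AG, where 22.7% of all 15603 tested genes had an adjusted p under 0.05, so such a difference was common. The interaction was 0.45 on the log2 scale for Bcl2l1 (adjusted p = 0.00364), 0.48 for Birc2 (adjusted p = 0.0117) and 1.05 for Birc3 (adjusted p = 0.015), and Birc3 alone of these exceeded 1.5-fold. For Bcl2l1 the gap below miR-125b was narrower in hypoxia, for Birc2 a gap above miR-125b was present in hypoxia, and for Birc3 the log2 difference from miR-125b was -0.80 (adjusted p = 0.0126) in normoxia and 0.26 (95% interval -0.15 to 0.66, adjusted p = 0.275) in hypoxia, where it did not pass.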

How the results depend on the processing

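At 1.5-fold, the 7 genes gave 11 calls in the 5 comparisons of mimics with MC, 1 and 6 in the 4 comparisons of isomiRs with miR-125b in hypoxia and in normoxia, 11 in the 5 of hypoxia with normoxia and 1 in the 4 interactions. With a fold limit of 2 these became 1, 0, 0 and 2 for the first 4 sets, and with no fold limit 22, 4, 10, 21 and 3, out of 35, 28, 28, 35 and 28 values. With no fold limit, 29.9% to 59.5% of all tested genes passed in the first set and 2.19% to 41.4% in the second. In the other sets 0% to 38.5%, 30.2% to 54.7% and 0.0385% to 22.7% passed. One fit of all libraries gave 2 calls for isomiRs in hypoxia, and DESeq2 gave 2 interactions. The fold limits act by construction, and the cause of the other shifts was not tested. Leaving out 1 library at a time gave 9 to 13, 0 to 1, 3 to 6, 9 to 13 and 1 to 2 calls. The isomiR counts fell to 0 in hypoxia and to 3 in normoxia, without Normoxia Trim AGU replicate 3 for the latter. Of the 30 calls, 16 held without each library. The sign of 0 called values changed, while 65 values called in neither setting changed sign, of a size up to 0.33 on the log2 scale. DESeq2 gave no adjusted p for 2 values.

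With the replicate number as a block the counts were 11, 1, 6, 9 and 1. Same-number libraries correlated at -0.16 to 0.074, and in 0 of 18 comparisons did every library correlate best with its own number. These comparisons did not set different isomiRs against each other, and a batch shared by number was not tested there. The block ended the Bcl2 calls of hypoxia against normoxia under Trim A (-0.71, adjusted p = 0.0544) and Trim AGU (-1.16, adjusted p = 0.0839) and changed no other call. Depth was lowest for Bcl2 and Birc3, at 33 to 163 and 35 to 130 counts per library.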

Other observations

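Among the partner genes of apoptosis, Casp6, an executioner caspase, was at 3.78 ± 0.423 CPM (SD, n = 3 libraries) in Hypoxia MC and at 0.232 ± 0.115 CPM (SD, n = 3) in Hypoxia Trim AG. The change was -3.94 ± 0.33 (SE) on the log2 scale, adjusted p = 2e-05 by edgeR, and it was lower with miR-125b, Plus A and Trim A as well, by edgeR at -3.29, -1.91 and -3.45. Apaf1, the scaffold of the apoptosome, was lower than MC with Trim AGU, at -1.01 ± 0.23 (SE), adjusted p = 0.0185, and lower in hypoxia than in normoxia under the same mimic, at -1.16 ± 0.25 (SE), adjusted p = 0.0138. The Hypoxia Trim AGU mean of Apaf1 includes the library that stood apart and had an SD of 10.7 CPM around 30 CPM.

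Among the 7 genes, levels centred within oxygen went together most for Bcl2 and Cflar (r = 0.70 over 33 libraries) and went apart most for Bcl2l1 and Cflar (r = -0.58). Both pairs kept their sign in normoxia and in hypoxia, at 0.66 and 0.73 and at -0.65 and -0.51. Other pairs did not. Bcl2 and Birc3 went apart most in normoxia (-0.76) but not in hypoxia (0.15), and Birc3 and Cflar gave -0.72 and 0.38. Libraries of a group share their mimic, and these values are a description.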
